A study of Mus musculus with 8 samples.

Results

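Antibody-injected and antibody-free mouse 2-cell embryos were compared as 2 arms of 4 pools each, 8 pools in all, and the genes of interest were those whose 4 antibody pools all lay on one side of the 4 antibody-free pools. Such a gene is called separated here. Of 30709 genes, 9374 were separated: 5138 were higher in all 4 antibody pools (16.7% of the genes tested) and 4236 were lower in all 4 (13.8%). RNA levels came from Affymetrix whole-transcript arrays, 1 array per pool and 100 embryos per pool, as log2 values. All embryos came from B6C3F1 x CD1 matings and were zygotes fertilized in vivo after hormonal stimulation, and pools were lysed at the late 2-cell stage. The antibody arm held 2 pools injected at the pronuclear stage with Trim21 mRNA and anti-COPS3 and 2 pools of embryos with anti-COPS3 only. The antibody-free arm held 2 pools injected with Trim21 mRNA and 2 pools of non-manipulated embryos, which were left in the incubator. Culture lasted 28 h per the protocol, while the age label gives 24 h in vitro. The injection of antibody without Trim21 mRNA is named in the sample titles alone, and the labels name no control antibody, so COPS3 loss and the presence of any antibody in the ooplasm cannot be told apart.

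TRIM21 is a ubiquitin ligase that binds the constant part of antibodies and sends the antibody and the protein it holds to the proteasome. COPS3 belongs to the COP9 signalosome, which strips the ubiquitin-like protein NEDD8 from cullins and so turns over the activity of cullin-RING ubiquitin ligases. The mouse embryo starts with RNA stored by the oocyte. During the 2-cell stage it destroys much of that store and switches on its own genome, first with transient 2-cell genes and then with a broad set of genes for ribosomes, RNA processing and metabolism.

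The arms differed in ways that bear on every value below. Per the labels, 2-cell formation was normal in the antibody-free groups and poor in both antibody groups, where many zygotes stayed undivided. Each group was treated on a day of its own and both of its pools shared that day, so each arm spans 2 days, and day and group cannot be told apart. Labels do not say that the 2 pools of a group came from separate matings. In pooled embryos, fewer embryos with a transcript and less of it per embryo cannot be told apart. Antibody pools were also more variable: the median SD over 4 pools was 0.35 in the antibody arm and 0.15 in the antibody-free arm. The pools with anti-COPS3 only stood apart from their arm. Replicate 2 had a mean correlation over genes of 0.944 with the other antibody pools and 0.968 with the antibody-free pools. Replicate 1 of that group had 0.935 with the other antibody pools and 0.939 with the antibody-free pools. Replicate 2 was the antibody pool nearest to the other arm in 51.8% of the higher and 54.1% of the lower genes. Without replicate 2, 10751 genes were higher and 5506 lower. On 3 antibody arrays (both with Trim21 mRNA and anti-COPS3, and replicate 1 with anti-COPS3 only) 136 to 169 transcript clusters shared the highest value of the array, against 1 cluster on each of the other 5. Of the 12 genes at that value, 5 were separated lower, none was called lower and no gene named below was among them.

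Trim21 itself checked the labels. Its log2 level was 10.40 and 10.30 with Trim21 mRNA and anti-COPS3 and 6.76 and 6.37 with anti-COPS3 only, against 9.77 and 10.14 with Trim21 mRNA and 6.27 and 5.65 in non-manipulated embryos. Both groups that received the mRNA were high and both others were low, so the arms overlapped, with a difference between them of 0.50 ± 1.36, adjusted p = 0.791. Differences are given throughout as the mean of the 4 antibody pools minus the mean of the 4 antibody-free pools, in log2, ± the standard error of a limma fit with the labelled group as a random block. Means carry the SD over 4 pools. A gene was called, and is said to have risen or fallen, at a Benjamini-Hochberg adjusted p under 0.05 over all 30709 genes.

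By the test more genes fell than rose, although more were separated higher than lower, and with array weights the test called more higher (5874) than lower (5312). The test called 723 genes higher (2.35% of the genes tested) and 2447 lower (7.97%), and every called gene was also separated. With the pools of each group averaged first, so that 2 groups stood against 2, limma called no gene, with a smallest adjusted p of 0.0837 and 6918 genes at an unadjusted p under 0.05. The gap of a separated gene, the distance between the nearest pools of the 2 arms, reached 1 (2-fold) for 790 genes that were lower (2.57%) and for 79 that were higher (0.257%). Separated lower genes had a median difference of −1.31 and separated higher genes of 0.50. The widest gaps were 3.12 among lower genes, at Rflnb, and 2.29 among higher genes, at the small nucleolar RNA gene Snord82.

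The direction of separation went with level. Among 13629 genes with a mean log2 level of at least 6 in one arm, 3985 (29.2%) were lower and 1306 (9.58%) higher, and the test called 2411 lower and 514 higher. Among the 17080 genes below that level, 251 were lower and 3832 higher. The share of lower genes was 0.158% at a mean level of 2 to 4, 22.7% at 6 to 8 and 47.2% at 14 or above, and the share of higher genes was 23.5%, 8.70% and 7.29% at the same levels. The SD over genes within an array was 2.26 to 2.69 in antibody pools and 2.74 to 2.83 in antibody-free pools. The part of this narrower range in the directions was not tested. The median difference of all genes was 0.215 as deposited, −0.0975 with each array centred on its own median, −0.0017 with quantile normalization and −0.0062 with cyclic loess. With centred arrays 6187 genes were separated lower and 1019 higher, against 4236 and 5138 as deposited. Quantile normalization gave 4259 lower and 2921 higher genes, and cyclic loess 4376 lower and 2998 higher. Genes separated under all 4 scalings numbered 3128 lower and 839 higher, and the genes named below for the largest gap come from these. Counts of called genes moved too: centred arrays gave 3425 lower and 212 higher genes, quantile normalization 1820 and 1133, and cyclic loess 1992 and 1147.

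**Figure D1:**
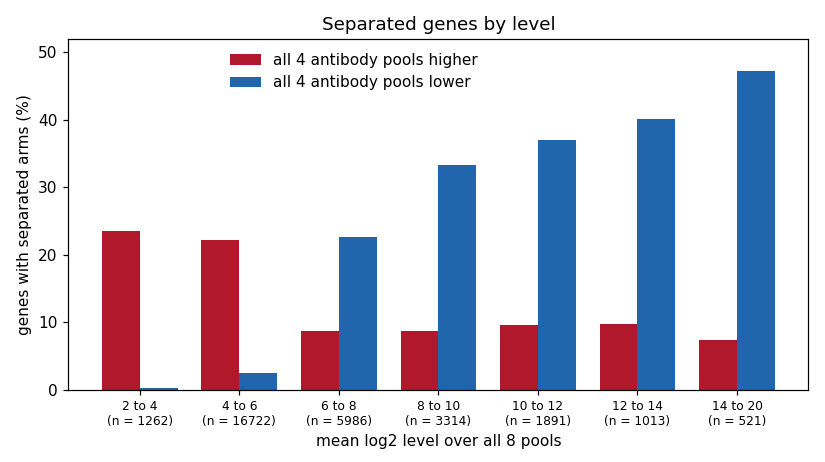
Share of genes with separated arms (%, vertical axis) in bins of mean log2 level over all 8 pools (horizontal axis, number of genes under each bin). Red bars count genes higher in all 4 antibody pools and blue bars genes lower in all 4: higher genes make up 23.5% of the lowest bin and lower genes 47.2% of the highest.

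Among the 12 named genes that rose, Kdelr2 had the widest gap. Kdelr2, a receptor that returns escaped proteins to the endoplasmic reticulum, stood at 12.50 and 11.81 with Trim21 mRNA and anti-COPS3 and 13.05 and 11.77 with anti-COPS3 only, against 9.17 and 8.90 with Trim21 mRNA and 9.77 and 9.49 in non-manipulated embryos. The lowest antibody pool lay 2.00 log2 units above the highest antibody-free pool, and the mean was 7.73-fold higher (2.95 ± 0.39, adjusted p = 0.00374). Oosp2, which encodes an oocyte-secreted protein, had log2 levels of 14.22 and 14.39 with Trim21 mRNA and anti-COPS3 and 13.47 and 13.85 with anti-COPS3 only, against 11.75 and 11.54 with Trim21 mRNA and 11.60 and 11.64 in non-manipulated embryos. Its difference was 2.35 ± 0.22, adjusted p = 0.00125, with no overlap between the arms.

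Of the Tcl1b genes, oocyte and early-embryo members of the Tcl1 family, 3 were among the 12 named. Tcl1b4 measured 18.54 and 18.55 with Trim21 mRNA and anti-COPS3 and 18.37 and 18.56 with anti-COPS3 only, against 16.05 and 16.44 with Trim21 mRNA and 16.84 and 16.78 in non-manipulated embryos, a 3.94-fold higher mean (1.98 ± 0.20, adjusted p = 0.00172). Tcl1b2 measured 18.62 and 18.43 with Trim21 mRNA and anti-COPS3 and 18.49 and 18.46 with anti-COPS3 only, against 16.63 and 16.72 with Trim21 mRNA and 16.99 and 16.96 in non-manipulated embryos (1.68 ± 0.14, adjusted p = 0.000792). Probes shared between these close copies would mix their signals, and this was not tested. In both genes the 4 antibody pools spanned less than the antibody-free pools did. These levels lie near the highest value of the 3 antibody arrays where many clusters shared it (18.88 to 19.20). Whether compression there narrowed the span was not tested. Tcl1b5 also rose, by 2.24 ± 0.34, adjusted p = 0.00645, and its pools with Trim21 mRNA and anti-COPS3 were the highest. Nlrp9b, an oocyte gene of the NLR family, rose 4.17-fold, at 13.29 ± 0.32 in antibody pools and 11.23 ± 0.21 in antibody-free pools (2.06 ± 0.21, adjusted p = 0.00172).

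Of the other named genes that rose, 2 encode secreted ligands. Tgfb2, a transforming growth factor beta ligand, stood at 15.11 and 15.01 with Trim21 mRNA and anti-COPS3 and 14.37 and 14.24 with anti-COPS3 only, against 12.17 and 12.25 with Trim21 mRNA and 12.86 and 12.80 in non-manipulated embryos (2.16 ± 0.27, adjusted p = 0.00288). The lowest antibody pool and the highest antibody-free pool were 1.38 apart. Il34, a ligand of the CSF1 receptor, averaged 9.82 ± 0.64 in antibody pools and 7.67 ± 0.18 in antibody-free pools (2.15 ± 0.30, adjusted p = 0.00477). Plk4, the kinase that starts centriole duplication, averaged 13.68 ± 0.49 in antibody pools and 11.71 ± 0.25 in antibody-free pools (1.98 ± 0.31, adjusted p = 0.00681). Stom, which encodes the membrane protein stomatin, rose by 2.13 ± 0.23, adjusted p = 0.00199, Triqk by 1.95 ± 0.22, adjusted p = 0.00234 and Cldn34b2, a claudin-like gene, by 1.75 ± 0.23, adjusted p = 0.00361. Among the 12 named higher genes the gap ran from 1.21 for Cldn34b2 to 2.00 for Kdelr2.

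Of the 12 named genes that fell, Mybbp1a, Ddx54, Pdcd11 and Ints1 act in the nucleolus or in transcript processing, while the gene with the widest gap does not. Rflnb, whose product binds the actin cross-linker filamin, had the widest gap, 3.12, with log2 levels of 5.55 and 5.76 with Trim21 mRNA and anti-COPS3 and 5.61 and 6.0 with anti-COPS3 only, against 10.27 and 10.69 with Trim21 mRNA and 9.15 and 9.12 in non-manipulated embryos. The antibody pools were all at 6.0 or below, near the median of the arrays, and since no detection calls were used no fold is given (−4.08 ± 0.37, adjusted p = 0.00115). Mybbp1a, a nucleolar protein that acts in ribosomal RNA synthesis, measured 8.72 and 9.04 with Trim21 mRNA and anti-COPS3 and 8.33 and 9.13 with anti-COPS3 only, against 12.59 and 12.62 with Trim21 mRNA and 12.15 and 12.14 in non-manipulated embryos, an 11.9-fold lower mean (−3.57 ± 0.25, adjusted p = 0.000512). Ddx54, a nucleolar RNA helicase, measured 8.86 and 8.49 with Trim21 mRNA and anti-COPS3 and 8.03 and 9.89 with anti-COPS3 only, against 12.88 and 12.73 with Trim21 mRNA and 13.02 and 13.06 in non-manipulated embryos (−4.11 ± 0.45, adjusted p = 0.00199). Its antibody pools were scattered but none came within 2.84 of the antibody-free pools. Pdcd11, a component of the small-subunit processome, averaged 7.09 ± 0.19 in antibody pools and 10.14 ± 0.13 in antibody-free pools (−3.05 ± 0.16, adjusted p = 0.000243). Ints1, a subunit of the Integrator complex that processes small nuclear RNAs, averaged 7.0 ± 0.32 in antibody pools and 10.49 ± 0.47 in antibody-free pools (−3.49 ± 0.28, adjusted p = 0.000655).

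The other named genes that fell have varied roles. Slc39a4, a zinc importer, had the largest mean difference of any gene tested as deposited, −5.48 ± 0.80, adjusted p = 0.00544, a 44.5-fold lower mean, with log2 levels of 6.58 and 6.85 with Trim21 mRNA and anti-COPS3 and 7.68 and 10.19 with anti-COPS3 only, against 13.20 and 12.99 with Trim21 mRNA and 13.57 and 13.44 in non-manipulated embryos. The 4 antibody pools spread widely, from 6.58 to 10.19, with anti-COPS3 only, replicate 2, nearest to the antibody-free arm. Gldc, the decarboxylase of the glycine cleavage system, averaged 8.90 ± 0.65 in antibody pools and 12.92 ± 0.34 in antibody-free pools (−4.03 ± 0.34, adjusted p = 0.000792). Npl, a lyase of sialic acid breakdown, averaged 10.70 ± 0.81 in antibody pools and 14.83 ± 0.15 in antibody-free pools (−4.13 ± 0.41, adjusted p = 0.00151). Anpep, the cell-surface aminopeptidase N, fell (−3.65 ± 0.30, adjusted p = 0.000792). Wdr81, a WD-repeat protein of endosomes, measured 6.03 and 6.42 with Trim21 mRNA and anti-COPS3 and 6.28 and 6.62 with anti-COPS3 only, against 10.03 and 9.61 with Trim21 mRNA and 10.01 and 9.87 in non-manipulated embryos (−3.54 ± 0.20, adjusted p = 0.000243). The scaffold gene Caskin1 (−3.61 ± 0.29, adjusted p = 0.000679) and the methyltransferase gene Smyd5 (−3.64 ± 0.27, adjusted p = 0.000599) completed the 12, and no antibody pool of either reached an antibody-free pool.

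**Figure D2:**
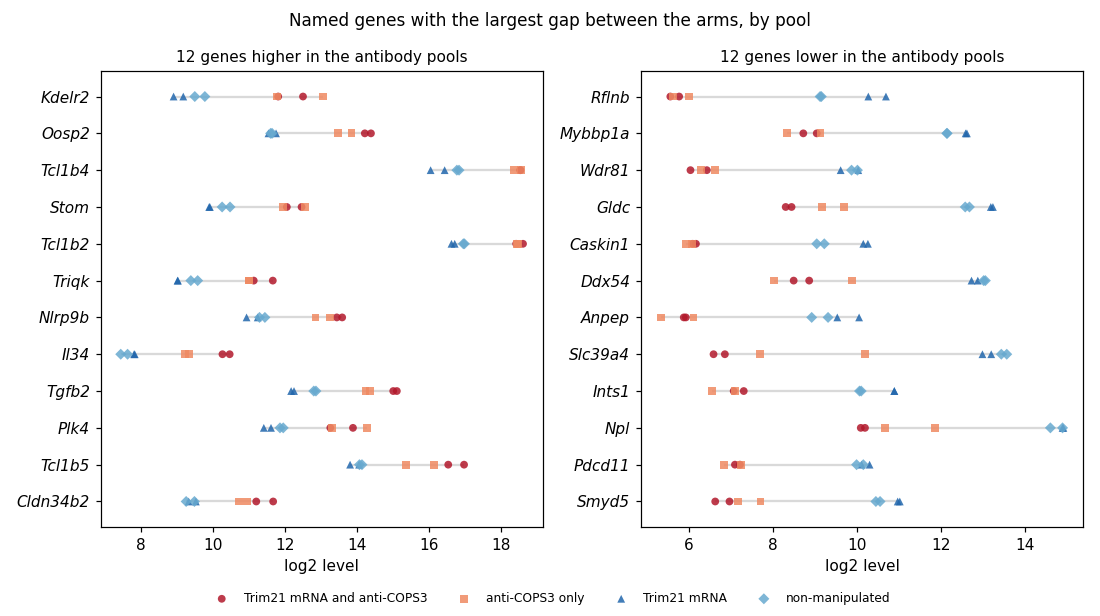
Log2 level (horizontal axis) of the 12 named genes with the largest gap in each direction, 1 point per pool, coloured and shaped by group. In every row the 4 antibody pools (circles and squares) lie apart from the 4 antibody-free pools (triangles and diamonds), by 1.21 to 2.00 log2 units among the higher genes and by 2.75 to 3.12 among the lower.

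Promoters of the genes with the widest gaps had different median CG counts in the 2 directions. RefSeq promoters (GRCm38.p6, 250 bases before to 50 after the start, 1 per gene, the first listed) were at hand for 7862 of 9542 protein-coding genes with a level of at least 6. CG dinucleotides, which mark CpG-island promoters, had a median of 5 per promoter in the 35 genes higher by a gap of at least 1 and 22 in the 473 genes lower by that gap, with 21 in the 4676 genes whose arms overlapped. Median GC content was 51.0%, 60% and 60.7% in the same order. The letters TATAAA, on either strand, stood in 8 of the 35 higher promoters (22.9%) and in 7.61% of the lower, against 7.28% of all 7862. TAATCC stood in 6 (17.1%) of the higher and 6.55% of the lower, against 5.81% of all. The ETS motif CCGGAAG stood in 5.71% of the higher and 29.0% of the lower promoters, against 19.5% of all, and the E-box CACGTG in 5.71%, 13.3% and 10.3%. CCAAT was held by 37.1%, 35.9% and 40.1%. Over all separated genes of this level the median CG count was 17 in higher and 21 in lower genes. Both directions overlapped widely in it, with quartiles of 5 and 28 in higher and 15 and 28 in lower genes. These shares describe the letters in the window, with no test, and the promoters printed next were picked after the shares were seen.

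For each direction the 2 motifs most in excess over all promoters are shown in the named gene with the largest gap that holds them, with every match to the 5 motifs in capitals. Nlrp9b (chr7:20007773-20008072, plus strand) holds TATAAA on the opposite strand and 2 CG dinucleotides, and Tgfb2 (chr1:186705940-186706239, minus strand) holds TAATCC beside a CCAAT box, an E-box and a TATA box, with 10 CG dinucleotides. Ddx54 (chr5:120612880-120613179, plus strand) holds the ETS motif on the opposite strand and 30 CG dinucleotides, and Mybbp1a (chr11:72441077-72441376, plus strand) holds the E-box and 21. The first pair are genes that rose and the second pair genes that fell, and all are written 5′ to 3′ along the gene's strand.
Nlrp9b: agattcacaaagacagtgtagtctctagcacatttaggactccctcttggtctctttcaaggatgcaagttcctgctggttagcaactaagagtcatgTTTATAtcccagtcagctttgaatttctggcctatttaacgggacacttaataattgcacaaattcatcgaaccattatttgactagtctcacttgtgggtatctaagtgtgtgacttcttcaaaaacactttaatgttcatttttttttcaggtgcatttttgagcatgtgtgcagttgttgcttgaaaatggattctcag
Tgfb2: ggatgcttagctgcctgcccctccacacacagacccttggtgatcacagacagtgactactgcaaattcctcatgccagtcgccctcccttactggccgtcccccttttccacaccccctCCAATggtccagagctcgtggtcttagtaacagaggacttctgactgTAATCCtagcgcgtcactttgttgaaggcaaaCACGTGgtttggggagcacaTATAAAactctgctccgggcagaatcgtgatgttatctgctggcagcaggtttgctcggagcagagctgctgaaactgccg
Ddx54: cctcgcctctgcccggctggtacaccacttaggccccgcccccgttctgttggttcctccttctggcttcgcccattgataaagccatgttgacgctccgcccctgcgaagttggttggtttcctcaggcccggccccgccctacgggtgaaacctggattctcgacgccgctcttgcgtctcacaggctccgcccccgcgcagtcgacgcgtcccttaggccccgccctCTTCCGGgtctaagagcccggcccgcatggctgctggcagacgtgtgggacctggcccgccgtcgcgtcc
Mybbp1a: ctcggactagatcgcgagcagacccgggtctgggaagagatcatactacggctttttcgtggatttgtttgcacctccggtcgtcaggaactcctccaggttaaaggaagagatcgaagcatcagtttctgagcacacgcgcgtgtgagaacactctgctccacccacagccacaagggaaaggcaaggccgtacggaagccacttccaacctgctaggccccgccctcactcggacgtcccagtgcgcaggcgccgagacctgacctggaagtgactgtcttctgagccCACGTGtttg

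Genes that make ribosomes were lower in the antibody pools more often than not. Ribosome assembly starts in the nucleolus, where RNA polymerase I transcribes the ribosomal RNA precursor, the small-subunit processome cuts it out, and further factors build the large subunit. Of the processome genes 39 of 45 were lower in all 4 antibody pools and 0 higher, beside 29.2% and 9.58% of all genes with a level of at least 6, and 28 fell. Of all genes of that level 2411 of 13629 fell. The list median was −2.03, and −2.34 with each array centred on its median, −1.61 with quantile normalization and −1.63 with cyclic loess. Its median log2 level by pool was 8.38 and 8.24 with Trim21 mRNA and anti-COPS3 and 9.87 and 10.20 with anti-COPS3 only, against 11.07 and 10.99 with Trim21 mRNA and 11.22 and 11.02 in non-manipulated embryos. Both antibody groups lay below all antibody-free pools, and the pools with Trim21 mRNA and anti-COPS3 were lowest. Pwp2, a processome subunit, measured 6.31 and 6.44 with Trim21 mRNA and anti-COPS3 and 6.41 and 6.68 with anti-COPS3 only, against 9.28 and 9.06 with Trim21 mRNA and 9.43 and 9.45 in non-manipulated embryos, a 7.19-fold lower mean (−2.85 ± 0.16, adjusted p = 0.000243). Heatr1, another subunit, averaged 8.17 ± 0.61 in antibody pools and 10.95 ± 0.13 in antibody-free pools (−2.77 ± 0.33, adjusted p = 0.00251).

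Large-subunit assembly genes were lower in 34 of 46 cases, with 26 calls and a median of −1.83. Of all genes with a level of at least 6, 29.2% were lower and 2411 of 13629 fell. Nop2, a methyltransferase of the large ribosomal RNA, averaged 10.80 ± 0.76 in antibody pools and 14.01 ± 0.03 in antibody-free pools (−3.21 ± 0.35, adjusted p = 0.00194), and the helicase gene Ddx24 fell too (−2.83 ± 0.37, adjusted p = 0.00377). Of RNA polymerase I genes and factors 14 of 16 were lower and 12 fell, with a median of −1.96. Polr1a, the largest subunit of the polymerase, measured 7.22 and 7.15 with Trim21 mRNA and anti-COPS3 and 6.52 and 7.07 with anti-COPS3 only, against 9.87 and 9.79 with Trim21 mRNA and 9.75 and 9.73 in non-manipulated embryos (−2.80 ± 0.19, adjusted p = 0.000488). The 4 antibody-free pools were within a narrow band and all antibody pools lay at least 2.51 below it. Polr1b, its second largest subunit, averaged 7.62 ± 0.25 in antibody pools and 10.04 ± 0.12 in antibody-free pools (−2.42 ± 0.18, adjusted p = 0.000599). Over 12 alternatives (3 scalings, a level filter and each pool left out) the medians ranged over −2.34 to −1.61 for the processome, −2.14 to −1.39 for large-subunit assembly and −2.27 to −1.45 for RNA polymerase I. The lists were drawn up with earlier results of these data known, so their counts do not stand as independent evidence of direction.

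Ribosomal proteins and translation factors went the same way, beside 29.2% lower and 2411 of 13629 fallen among all genes with a level of at least 6. Of 36 measured cytosolic ribosomal protein genes 33 were lower in all 4 antibody pools and 21 fell, with a median of −1.71. Without anti-COPS3 only, replicate 2, all 36 were lower, beside 5506 of all 30709 genes. The list holds 81 genes, and the others had no transcript cluster that named them alone. Rpl27, a large-subunit protein, measured 10.95 and 10.05 with Trim21 mRNA and anti-COPS3 and 12.85 and 13.21 with anti-COPS3 only, against 15.13 and 15.44 with Trim21 mRNA and 15.31 and 15.04 in non-manipulated embryos (−3.47 ± 0.67, adjusted p = 0.0155). Its antibody pools with Trim21 mRNA were lower than those without. Fau, which encodes a ubiquitin-like protein fused to a small-subunit protein, averaged 12.39 ± 0.74 in antibody pools and 15.49 ± 0.49 in antibody-free pools (−3.11 ± 0.41, adjusted p = 0.00366), and Rps15 also fell (−2.67 ± 0.33, adjusted p = 0.00309). Mitochondrial ribosomal protein genes were lower in 41 of 76 cases, 26 of them called, with a smaller median of −0.83. Mrps18b (−1.69 ± 0.14, adjusted p = 0.00074), Mrps24 (−2.23 ± 0.28, adjusted p = 0.0031) and Mrps7 (−2.13 ± 0.30, adjusted p = 0.00446) had the widest gaps.

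Among translation factors 28 of 39 were lower and 20 fell (median −1.64). The shares over all genes with a level of at least 6 were 29.2% lower and 2411 of 13629 fallen. Eef2, which moves the ribosome along the message, measured 11.68 and 11.17 with Trim21 mRNA and anti-COPS3 and 11.53 and 11.63 with anti-COPS3 only, against 14.13 and 14.08 with Trim21 mRNA and 14.07 and 14.06 in non-manipulated embryos, a 5.99-fold lower mean (−2.58 ± 0.17, adjusted p = 0.000367). The arms were 2.38 apart with little spread in either. The initiation factor 3 subunits Eif3a (−3.31 ± 0.53, adjusted p = 0.00766) and Eif3b (−3.84 ± 0.81, adjusted p = 0.0218) fell with more spread between antibody pools. Eif3b ranged in them from 5.52 to 9.02. Of the tRNA synthetases and their partners 12 of 19 were lower and 9 fell (median −1.17), among them Aimp2 (−2.28 ± 0.35, adjusted p = 0.00644), Farsa (−1.96 ± 0.32, adjusted p = 0.00801) and Eprs (−2.37 ± 0.45, adjusted p = 0.0148).

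**Figure D3:**
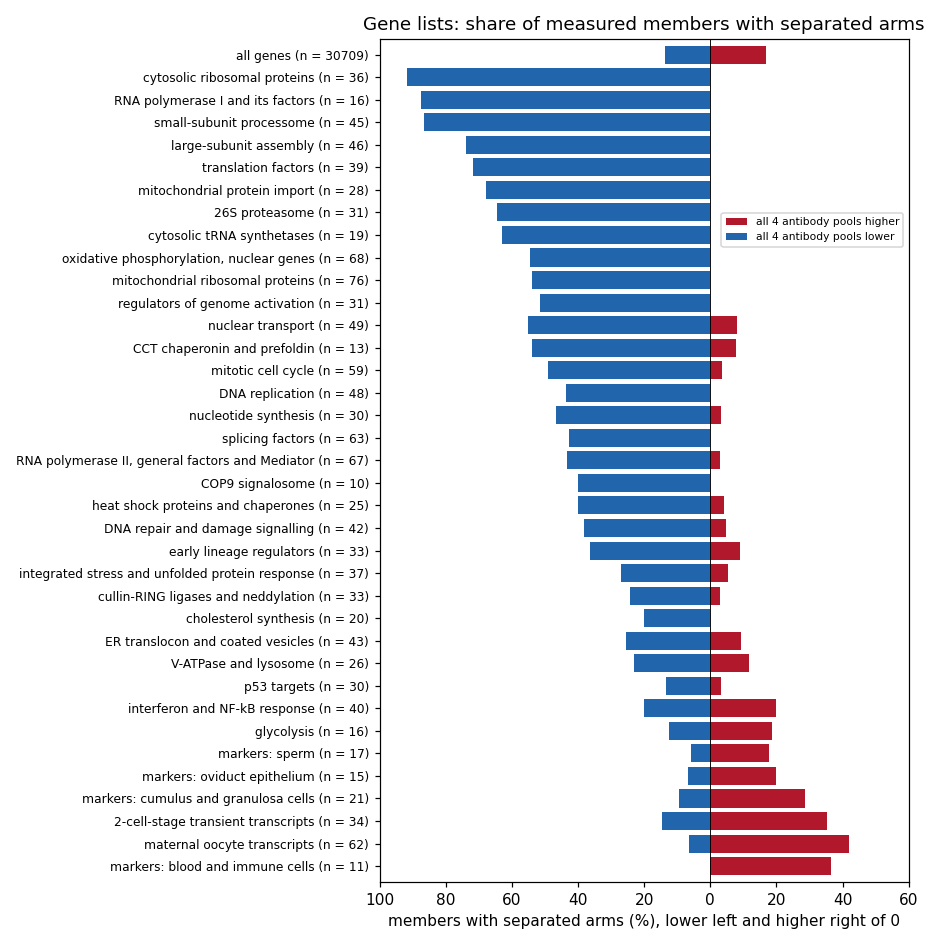
Share of the measured members of each gene list (%) that were lower (blue, left of 0) or higher (red, right of 0) in all 4 antibody pools, ordered by the difference of the shares, with all 30709 genes on top. Ribosomal protein, RNA polymerase I and processome genes reach 86.7% to 91.7% lower with none higher, while maternal oocyte transcripts are 41.9% higher and 6.45% lower.

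Protein turnover and folding genes were lower in part, beside the 29.2% lower and 9.58% higher among all genes with a level of at least 6. Of all genes of that level 2411 of 13629 fell. Of 26S proteasome genes, the protease that TRIM21 and the cullin ligases feed, 20 of 31 were lower and 12 fell (median −1.65). Psmd11, a lid subunit, measured 11.26 and 11.06 with Trim21 mRNA and anti-COPS3 and 12.25 and 12.15 with anti-COPS3 only, against 13.37 and 13.34 with Trim21 mRNA and 13.32 and 13.28 in non-manipulated embryos (−1.65 ± 0.28, adjusted p = 0.00936). Psmd7, another lid subunit, averaged 11.13 ± 1.58 in antibody pools and 14.12 ± 0.24 in antibody-free pools (−2.98 ± 0.69, adjusted p = 0.0302), and the core subunit gene Psma6 fell 7.12-fold (−2.83 ± 0.52, adjusted p = 0.0127). CCT chaperonin and prefoldin genes, which fold actin and tubulin, were lower in 7 of 13 cases with 6 falls and 1 rise (median −1.73). Cct7 (−1.73 ± 0.25, adjusted p = 0.00544), Cct5 (−2.10 ± 0.39, adjusted p = 0.0139) and Cct4 (−2.03 ± 0.40, adjusted p = 0.0174) had the widest gaps. Among heat shock proteins and chaperones 10 of 25 were lower, 7 of them called (median −0.82). Cdc37, which loads kinases onto HSP90, averaged 6.53 ± 0.31 in antibody pools and 9.51 ± 0.13 in antibody-free pools (−2.98 ± 0.19, adjusted p = 0.000367), Stip1, which links HSP70 to HSP90, fell (−2.36 ± 0.41, adjusted p = 0.0102), and so did the mitochondrial chaperone gene Trap1 (−1.52 ± 0.23, adjusted p = 0.0059).

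Of the COP9 signalosome, the complex that holds COPS3, 4 of 10 subunit genes were lower and 1 passed the test (median −0.52, and −0.83 with each array centred on its median, −0.06 with quantile normalization and −0.10 with cyclic loess). The method acts on protein, so these messages do not measure COPS3 loss. Cops3 measured 9.06 and 9.40 with Trim21 mRNA and anti-COPS3 and 8.85 and 8.86 with anti-COPS3 only, against 10.00 and 9.97 with Trim21 mRNA and 9.50 and 9.52 in non-manipulated embryos. The arms were 0.10 apart at their nearest pools and the difference missed the threshold (−0.71 ± 0.20, adjusted p = 0.0599). With each array centred it passed (adjusted p = 0.0096), while with quantile normalization (−0.20) and cyclic loess (−0.30) the arms overlapped and it did not. Cops6 fell, close to the threshold (−1.83 ± 0.49, adjusted p = 0.0498, not called with quantile normalization or cyclic loess), at 9.65 and 9.53 with Trim21 mRNA and anti-COPS3 and 11.59 and 11.44 with anti-COPS3 only, against 12.48 and 12.27 with Trim21 mRNA and 12.41 and 12.35 in non-manipulated embryos. The antibody difference of Cops6 was −2.79 with and −0.87 without Trim21 mRNA. Cops7a (−0.90 ± 0.28, adjusted p = 0.0826) and Cops4 (−0.87 ± 0.25, adjusted p = 0.0625) were separated and missed the threshold. Of these 4 subunits Cops6 alone was separated under all 4 scalings, and the arms of the other 3 overlapped with quantile normalization and cyclic loess. Differences of the subunits with overlapping arms as deposited were −1.42 for Cops5, the catalytic subunit, −0.34 for Cops8, −0.33 for Gps1, −0.17 for Cops9, 0.00 for Cops7b and 0.50 for Cops2, none of them called. With quantile normalization and cyclic loess the arms of Cops2 and Cops7b were separated, higher in the antibody pools, without a call. Of 33 cullin-RING and neddylation genes, the substrates and partners of the complex, 8 were lower, 1 was higher and 5 fell, a share of lower genes (24.2%) below the 29.2% of all genes with a level of at least 6. Skp2, an F-box protein that targets the cell-cycle inhibitor p27, averaged 11.20 ± 0.24 in antibody pools and 12.43 ± 0.04 in antibody-free pools (−1.24 ± 0.17, adjusted p = 0.00412, not called with quantile normalization), Btrc, the F-box protein of beta-catenin and IkB, fell (−1.0 ± 0.20, adjusted p = 0.0161, not called with quantile normalization or cyclic loess), and Rnf7, a RING subunit, was separated without a call (−1.54 ± 0.45, adjusted p = 0.0658).

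**Figure D4:**
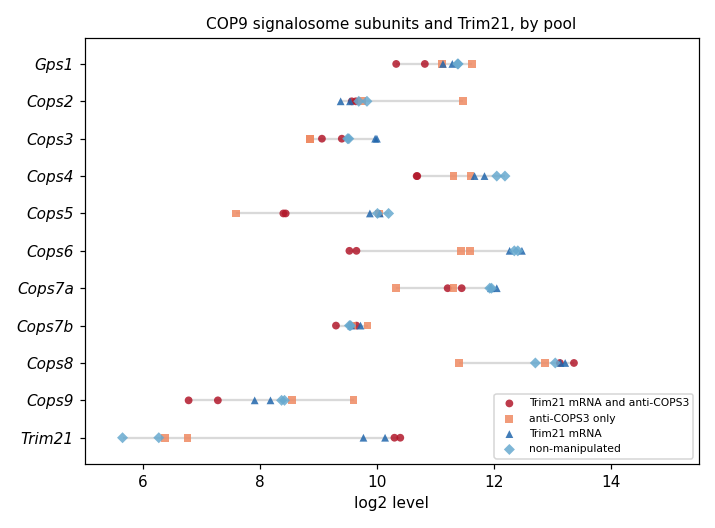
Log2 level (horizontal axis) of the 10 COP9 signalosome subunit genes and of Trim21, 1 point per pool, coloured and shaped by group. Cops3, Cops4, Cops6 and Cops7a have separated arms as deposited, all lower in the antibody pools. With quantile normalization and cyclic loess Cops6 alone of them stays separated, and Cops2 and Cops7b are separated higher. Trim21 is high in the 4 pools that received its mRNA, at 9.77 to 10.40, against 5.65 to 6.76 in the other 4.

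Genes of mitochondria were lower more often than all genes with a level of at least 6, of which 29.2% were lower. Of nuclear genes of oxidative phosphorylation 37 of 68 were lower (54.4%) and 13 fell (median −0.84). Their share of falls was near that of all genes of this level, of which 2411 of 13629 fell. Of mitochondrial protein import genes 19 of 28 were lower (67.9%) and 15 fell (median −1.36). Tomm40, the pore of the outer membrane, averaged 7.94 ± 0.35 in antibody pools and 10.58 ± 0.10 in antibody-free pools (−2.64 ± 0.21, adjusted p = 0.000679), Pmpca, a subunit of the presequence protease, fell (−2.20 ± 0.30, adjusted p = 0.00421), and so did Timm13 (−3.78 ± 0.77, adjusted p = 0.0193). Among respiratory-chain genes Cox4i1 (−1.98 ± 0.30, adjusted p = 0.00604), Ndufv1 (−1.08 ± 0.12, adjusted p = 0.00242) and Cyc1 (−1.60 ± 0.29, adjusted p = 0.0116) had the widest gaps.

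Nucleotide synthesis genes were lower in 14 of 30 cases, beside 29.2% of all genes with a level of at least 6, and 11 fell (median −1.24). Of all genes of that level 2411 of 13629 fell. Cad, which starts pyrimidine synthesis, measured 6.96 and 7.28 with Trim21 mRNA and anti-COPS3 and 8.24 and 7.87 with anti-COPS3 only, against 10.83 and 10.51 with Trim21 mRNA and 10.55 and 10.63 in non-manipulated embryos, an 8.24-fold lower mean (−3.04 ± 0.29, adjusted p = 0.00129). Gart of purine synthesis (−2.74 ± 0.27, adjusted p = 0.00155) and Rrm1 of ribonucleotide reductase (−2.32 ± 0.48, adjusted p = 0.0197) fell too. Glycolysis and cholesterol synthesis had fewer lower genes: 2 lower and 3 higher of 16 glycolysis genes (median −0.13, and −0.44 with each array centred on its median, −0.04 with quantile normalization and −0.01 with cyclic loess), and 4 lower of 20 cholesterol genes (median −0.005, and −0.32 with each array centred on its median, 0.16 with quantile normalization and 0.16 with cyclic loess). Pgam1 fell (−2.09 ± 0.48, adjusted p = 0.0303, not called with quantile normalization) and Ldhb, a lactate dehydrogenase, rose (0.80 ± 0.16, adjusted p = 0.0156, not called with each array centred), while Pfkm was separated higher at a low level without a call (0.43 ± 0.17, adjusted p = 0.132). Of the sterol genes Mvk (−1.10 ± 0.19, adjusted p = 0.0108) and Ebp (−1.15 ± 0.25, adjusted p = 0.0236) fell, and Lss was separated without a call (−0.67 ± 0.19, adjusted p = 0.0603). Lysosomal and V-ATPase genes were lower in 6 of 26 cases and higher in 3, near the shares of all genes with a level of at least 6 (29.2% and 9.58%). The cathepsin genes Ctsa (−3.41 ± 0.52, adjusted p = 0.00637), Ctsz (−2.80 ± 0.72, adjusted p = 0.0437, not called with quantile normalization or cyclic loess) and Ctsb (−2.26 ± 0.55, adjusted p = 0.037) were among the 4 that fell.

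Secretory-pathway genes were separated in both directions, near the shares of all genes with a level of at least 6 (29.2% lower and 9.58% higher). Of 43 genes of the endoplasmic reticulum translocon and coated vesicles 11 were lower (25.6%), 7 of them called, and 4 were higher (9.30%), all 4 called. The median was −0.09 and turned positive with quantile normalization (0.05). Beside Kdelr2, which rose, Srpr, the receptor of the signal recognition particle, averaged 9.69 ± 0.30 in antibody pools and 11.99 ± 0.05 in antibody-free pools (−2.30 ± 0.20, adjusted p = 0.000921). Ssr2, a translocon-associated protein, fell with a wide spread (−3.86 ± 1.02, adjusted p = 0.0486, not called with quantile normalization or cyclic loess), at 9.25 and 9.42 with Trim21 mRNA and anti-COPS3 and 12.99 and 13.77 with anti-COPS3 only, against 15.05 and 14.75 with Trim21 mRNA and 15.52 and 15.56 in non-manipulated embryos. Its pools with Trim21 mRNA and anti-COPS3 were far below those with anti-COPS3 only.

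In the nucleus, transcription, splicing and transport genes fell in part. Of all genes with a level of at least 6, 29.2% were lower and 9.58% higher, and 2411 of 13629 fell. Of splicing factors 27 of 63 were lower and 22 fell (median −0.99). Prpf8, the core protein of the spliceosome, averaged 9.52 ± 0.29 in antibody pools and 11.94 ± 0.10 in antibody-free pools (−2.42 ± 0.19, adjusted p = 0.000599), the helicase gene Dhx8 fell (−2.43 ± 0.41, adjusted p = 0.00924), and so did Snrnp70 of the U1 particle (−1.80 ± 0.14, adjusted p = 0.000655). Without anti-COPS3 only, replicate 2, 44 splicing factors were lower, beside 5506 of all 30709 genes. Nuclear transport genes were lower in 27 of 49 cases and higher in 4 (median −0.86), with Ipo4 (−2.53 ± 0.25, adjusted p = 0.0016) and Tnpo3 (−3.02 ± 0.47, adjusted p = 0.00657), which are import receptors, and the nucleoporin gene Nup133 (−3.03 ± 0.60, adjusted p = 0.0169) among those that fell. Of RNA polymerase II genes, general factors and Mediator 29 of 67 were lower and 2 higher (median −0.84). Supt5, an elongation factor, measured 10.59 and 10.10 with Trim21 mRNA and anti-COPS3 and 9.18 and 10.43 with anti-COPS3 only, against 13.16 and 13.16 with Trim21 mRNA and 12.89 and 12.99 in non-manipulated embryos (−2.98 ± 0.35, adjusted p = 0.00253). Med16 of Mediator (−1.78 ± 0.17, adjusted p = 0.0013) and Cdk7 of TFIIH (−2.55 ± 0.67, adjusted p = 0.0467, not called with quantile normalization or cyclic loess) fell as well.

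Cell cycle genes were listed because the labels report stunted cleavage with the antibody. Their counts stand beside 29.2% lower and 9.58% higher among all genes with a level of at least 6, of which 2411 of 13629 fell. Of DNA replication genes 21 of 48 were lower, 0 higher, and 14 fell (median −0.72). Gins3, part of the replicative helicase, averaged 8.66 ± 0.89 in antibody pools and 12.63 ± 0.40 in antibody-free pools (−3.97 ± 0.43, adjusted p = 0.00196), and Rfc4 of the clamp loader (−1.68 ± 0.16, adjusted p = 0.0013) and Pole, the leading-strand polymerase (−1.87 ± 0.35, adjusted p = 0.014), fell. Mitotic genes were lower in 29 of 59 cases and higher in 2, with 22 falls and 1 rise (median −1.03). Plk1, a kinase of mitotic entry and exit, measured 12.77 and 12.98 with Trim21 mRNA and anti-COPS3 and 12.74 and 12.21 with anti-COPS3 only, against 15.68 and 15.60 with Trim21 mRNA and 15.45 and 15.39 in non-manipulated embryos, a 7.24-fold lower mean (−2.86 ± 0.20, adjusted p = 0.000528), opposite in sign to Plk4. Cdc20, which activates the anaphase-promoting complex, averaged 11.55 ± 1.19 in antibody pools and 14.97 ± 0.11 in antibody-free pools (−3.42 ± 0.52, adjusted p = 0.00613), and the spindle motor gene Kif11 fell (−3.24 ± 0.51, adjusted p = 0.00709). Repair and damage signalling genes were lower in 16 of 42 cases, with Ercc3 (−1.65 ± 0.19, adjusted p = 0.00253), Parp2 (−1.88 ± 0.24, adjusted p = 0.00322) and Xrcc1 (−1.63 ± 0.23, adjusted p = 0.00502) among the 10 that fell. What share of the embryos in a pool had divided is not given in the labels, and its part in these differences was not tested.

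Stress-response lists had shares of separated genes near or below those of all genes with a level of at least 6 (29.2% lower and 9.58% higher), except for higher interferon and NF-kB genes (20.0%). That list had pool medians of 5.1 to 5.435, below this level. Of all genes tested 16.7% were higher, and below a level of 6 3832 of 17080 were higher, so its share was not particular to it. Of 30 p53 target genes 4 were lower and 1 higher, with 1 fall, Sesn2 (−2.21 ± 0.23, adjusted p = 0.00177), a sestrin that is also in the integrated stress list. Tigar (−2.31 ± 0.62, adjusted p = 0.0515) and Ddit4 (−0.56 ± 0.16, adjusted p = 0.0598) were separated without a call. In the integrated stress and unfolded protein response list 10 of 37 were lower, 2 higher, 5 fell and 1 rose. Phgdh, the first enzyme of serine synthesis, averaged 7.99 ± 0.69 in antibody pools and 10.86 ± 0.25 in antibody-free pools (−2.87 ± 0.38, adjusted p = 0.00397), and Eif2ak3, the stress kinase PERK, fell (−1.49 ± 0.30, adjusted p = 0.0182). TRIM21 bound to antibody in the cytosol of human and mouse cells can set off innate immune signalling, so interferon and NF-kB genes were listed. Whether injected antibody does so in the ooplasm was not tested. Of 40 measured, 8 were higher and 8 lower, 1 rose and 4 fell, and the list median of 0.21 was negative under the 3 other scalings (−0.10 with each array centred on its median, −0.04 with quantile normalization and −0.05 with cyclic loess). The gene that rose was Tlr9, a sensor of unmethylated DNA, at 10.84 and 10.14 with Trim21 mRNA and anti-COPS3 and 9.62 and 9.50 with anti-COPS3 only, against 7.70 and 7.20 with Trim21 mRNA and 8.57 and 8.63 in non-manipulated embryos (2.00 ± 0.42, adjusted p = 0.0223). Its pools with Trim21 mRNA and anti-COPS3 were the highest. Stat2 (−2.67 ± 0.40, adjusted p = 0.00571) and Mavs (−1.16 ± 0.29, adjusted p = 0.0415, not called with quantile normalization or cyclic loess), which relay interferon and RNA-sensor signals, fell.

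Maternal RNAs were the list with the most higher genes. Of 62 maternal oocyte transcripts 26 were higher in all 4 antibody pools and 4 lower, beside 9.58% and 29.2% of all genes with a level of at least 6, and 14 rose with 0 falls. The median difference was 0.69, and 0.38 with each array centred on its median, 1.18 with quantile normalization and 1.11 with cyclic loess. By pool, the list median was 12.30 and 11.89 with Trim21 mRNA and anti-COPS3 and 11.41 and 12.06 with anti-COPS3 only, against 11.32 and 11.13 with Trim21 mRNA and 11.51 and 11.57 in non-manipulated embryos. The anti-COPS3 only pool replicate 1 lay among the antibody-free pools and the other 3 antibody pools above them. With Oosp2 and Nlrp9b, Oosp3 had the widest gap, averaging 17.11 ± 0.42 in antibody pools and 15.32 ± 0.23 in antibody-free pools (1.79 ± 0.24, adjusted p = 0.00378). Without anti-COPS3 only, replicate 2, 26 maternal genes were higher and 6 lower. Over all 30709 genes 10751 were then higher and 5506 lower, against 5138 and 4236 with that pool.

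The list of transient 2-cell genes was split, and whether a member's RNA was stored by the oocyte or made by the embryo was not tested. Of 34 measured, 12 were higher (35.3%) and 5 lower (14.7%), 8 rose and 3 fell, with a median of 1.14. Among all genes with a level of at least 6, 9.58% were higher and 29.2% lower. Obox5, a homeobox gene, measured 16.31 and 15.91 with Trim21 mRNA and anti-COPS3 and 16.03 and 15.85 with anti-COPS3 only, against 14.11 and 14.35 with Trim21 mRNA and 14.84 and 14.80 in non-manipulated embryos (1.5 ± 0.22, adjusted p = 0.00527). Its relative Obox6 went the other way, at 10.86 and 10.71 with Trim21 mRNA and anti-COPS3 and 12.14 and 12.40 with anti-COPS3 only, against 14.07 and 14.26 with Trim21 mRNA and 13.63 and 13.64 in non-manipulated embryos (−2.37 ± 0.41, adjusted p = 0.00962), and Pramel7 fell as well (−2.64 ± 0.41, adjusted p = 0.00682). Regulators of genome activation were lower in 16 of 31 cases, higher in 0, and 11 fell (median −0.86). Tead4, a factor of the later trophectoderm, averaged 7.48 ± 0.55 in antibody pools and 10.70 ± 0.11 in antibody-free pools, a 9.32-fold lower mean (−3.22 ± 0.27, adjusted p = 0.000792). The nuclear receptor gene Nr5a2 (−2.64 ± 0.40, adjusted p = 0.00644) and the chromatin remodeller gene Smarca4 (−1.71 ± 0.13, adjusted p = 0.000599) fell too. Smarca4 measured 9.89 and 9.68 with Trim21 mRNA and anti-COPS3 and 9.92 and 9.79 with anti-COPS3 only, against 11.57 and 11.55 with Trim21 mRNA and 11.51 and 11.47 in non-manipulated embryos, the narrowest spread of the 3 in both arms. Of early lineage regulators 12 of 33 were lower (36.4%) and 3 higher (9.09%), beside 29.2% and 9.58% of all genes with a level of at least 6. Tfap2c (−1.48 ± 0.24, adjusted p = 0.00835) and Fgf4 (−1.53 ± 0.24, adjusted p = 0.0069) were among those that fell.

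Markers of other cells that a zygote collection can carry were mostly at low levels. Their counts stand beside 16.7% higher and 13.8% lower among all genes tested. Below a level of 6 were 17080 genes, with 3832 higher and 251 lower. The shares of higher sperm (17.6%) and oviduct (20.0%) markers were near these. Of 21 cumulus and granulosa markers 14 had a mean log2 level under 6, 6 were higher and 2 lower, and 1 fell, Amhr2, a receptor of anti-Müllerian hormone. It averaged 9.10 ± 1.11 in antibody pools and 11.79 ± 0.25 in antibody-free pools (−2.70 ± 0.53, adjusted p = 0.0163). The summed level of the 21 markers, as log2, was 9.98 to 11.76 in antibody pools and 11.92 to 12.92 in antibody-free pools. Amhr2 was the most abundant of them (mean 10.44 over all pools), so the sum follows this gene most. Kctd14 (−1.67 ± 0.51, adjusted p = 0.0758) and Ptgs2 (0.47 ± 0.14, adjusted p = 0.0769) were separated in opposite directions without a call. Among sperm markers 3 of 17 were higher and 1 lower, with a summed level of 9.29 to 9.62 in antibody pools and 9.28 to 9.47 in antibody-free pools. Ldhc, a germ-cell lactate dehydrogenase, fell (−1.09 ± 0.23, adjusted p = 0.0223, not called with quantile normalization), while Akap4 (0.22 ± 0.13) and Zpbp (0.42 ± 0.18) were separated higher by 0.02 at levels under 6. Oviduct markers were higher in 3 and lower in 1 of 15 cases, none called, with a summed level of 11.03 to 12.72 in antibody pools and 11.64 to 11.83 in antibody-free pools. The most abundant of the 15 was Cdh1 (mean 10.79 over all pools). The separated ones included Ccdc39 (0.35 ± 0.14), Muc1 (0.61 ± 0.19) and Epcam (−1.32 ± 0.50), which averaged 9.32 ± 1.15 in antibody pools and 10.65 ± 0.08 in antibody-free pools. Blood and immune markers were higher in 4 of 11 cases, none called, such as Adgre1 (0.51 ± 0.15), Cd14 (0.46 ± 0.15) and Cd79a (0.37 ± 0.16), with a summed level of 8.41 to 8.76 in antibody pools and 8.27 to 8.40 in antibody-free pools. All of these 11 had a mean level under 6, where 3832 of 17080 genes were higher. Of the marker genes named without a call, Kctd14 and Muc1 alone were separated under all 4 scalings. The part of such cells in the differences was not tested.

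The antibody difference could be taken with Trim21 mRNA present (Trim21 mRNA and anti-COPS3 minus Trim21 mRNA) and without it (anti-COPS3 only minus non-manipulated), from pools that the 2 differences do not share. The signs matched in 81.6% of all genes and the correlation over genes was 0.684, given as a description because genes are not replicates. With each array centred the signs matched in 69.6%, with quantile normalization in 68.6% and with cyclic loess in 69.9%. Genes lower by a gap of at least 1 had a median of −2.65 with and −1.86 without Trim21 mRNA, and 641 of 790 were lower by more with it. For the 79 genes higher by that gap the medians were 2.43 with and 1.99 without, and 62 were larger with it. These genes were picked by separation in the same pools, which gives their 2 differences the same sign, so the counts are descriptions. Over all separated genes the difference was larger in size with Trim21 mRNA in 3104 of 4236 lower and 2792 of 5138 higher genes. The share over all genes was not taken. The interaction, the first difference minus the second, was called at 1253 genes (4.08%), of which 708 were separated. Days differ between all 4 groups, so the interaction carries day differences too. Non-manipulated embryos were left in the incubator, so injection itself cannot be told apart from the antibody in the difference without Trim21 mRNA. The interaction carries injection in the same way.

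Among separated genes with a called interaction, the 3 largest of each sign were named, and the 3 negative ones were larger in size. The interaction was called at 665 of 4236 separated lower genes and 43 of 5138 separated higher genes. Lratd2, Ctif and Dppa5a were separated as deposited but not under all 4 scalings. Dppa5a, a pluripotency-associated RNA-binding protein, measured 14.19 and 13.86 with Trim21 mRNA and anti-COPS3 and 18.06 and 18.03 with anti-COPS3 only, against 18.27 and 18.30 with Trim21 mRNA and 18.38 and 18.33 in non-manipulated embryos. Its interaction was −3.95 ± 0.23, adjusted p = 0.00227, and the difference between the arms was not called (−2.29 ± 0.99, adjusted p = 0.155). Calcoco2, an autophagy receptor, had a difference of −5.59 with and −1.34 without Trim21 mRNA (interaction −4.26 ± 0.46, adjusted p = 0.00662), and Actr6, an actin-related protein of chromatin, of −5.33 with and −1.15 without Trim21 mRNA (interaction −4.18 ± 0.48, adjusted p = 0.00735). In the other direction Lratd2 had differences of 2.43 with and 0.25 without Trim21 mRNA (interaction 2.19 ± 0.23, adjusted p = 0.00636), Ctif, a translation initiation factor of newly made messages, of 2.47 with and 0.49 without Trim21 mRNA (interaction 1.98 ± 0.31, adjusted p = 0.0192), and Tlr9 of 3.04 with and 0.96 without Trim21 mRNA (interaction 2.08 ± 0.38, adjusted p = 0.0348). Pdcd11 (−3.06 with and −3.04 without Trim21 mRNA), Polr1b (−2.43 with and −2.42 without Trim21 mRNA), Ddx54 (−4.13 with and −4.08 without Trim21 mRNA) and Eef2 (−2.68 with and −2.49 without Trim21 mRNA) had similar differences in both settings, and the interaction was not called for any of these 4. The list medians were −2.57 with and −1.29 without Trim21 mRNA for the processome, −2.16 and −0.99 for the proteasome, and 0.92 and 0.58 for maternal transcripts.

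**Figure D5:**
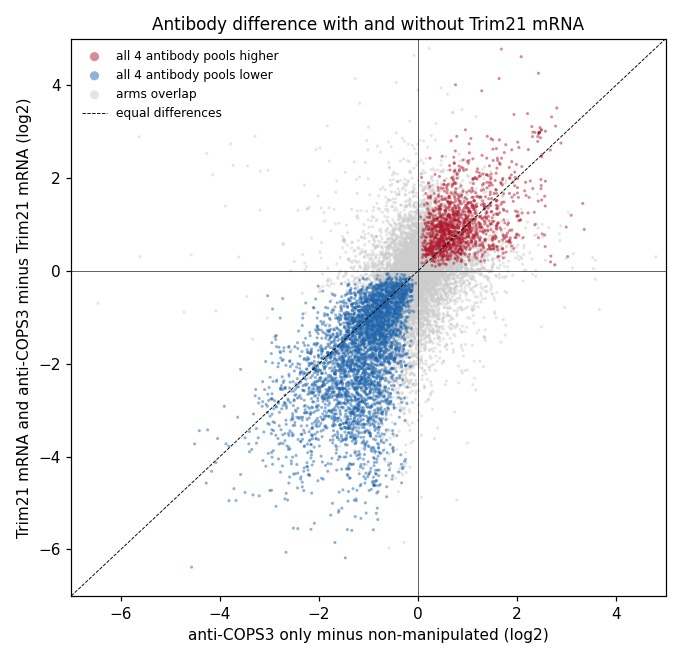
Antibody difference in log2 without Trim21 mRNA (horizontal axis) and with it (vertical axis) for genes with a level of at least 6, 1 point per gene, with a dashed line of equal differences. Genes lower in all 4 antibody pools (blue) lie mostly below the line, with medians for a gap of at least 1 of −2.65 with and −1.86 without Trim21 mRNA, and genes higher in all 4 (red) lie in the upper right.

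At the edge of separation, the called genes with the smallest gap were Dph5, a methyltransferase of diphthamide synthesis, and Antxr2, an anthrax toxin receptor. Dph5 measured 5.55 and 5.62 with Trim21 mRNA and anti-COPS3 and 6.22 and 6.57 with anti-COPS3 only, against 7.17 and 6.61 with Trim21 mRNA and 7.27 and 7.33 in non-manipulated embryos, with 0.04 between its nearest pools (−1.11 ± 0.29, adjusted p = 0.0465, not called with quantile normalization or cyclic loess). Antxr2 measured 8.34 and 7.80 with Trim21 mRNA and anti-COPS3 and 8.53 and 8.40 with anti-COPS3 only, against 7.18 and 7.02 with Trim21 mRNA and 7.75 and 7.47 in non-manipulated embryos, with 0.05 between them (0.91 ± 0.24, adjusted p = 0.0475, not called with each array centred). The arms of Dph5 overlapped with quantile normalization and cyclic loess, and those of Antxr2 with centred arrays. No called gene had overlapping arms, so none lay just outside.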

How the data were processed

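RNA of 8 pools of 100 embryos was measured on 8 whole-transcript arrays after amplified labelling, per the labels' protocols. The deposited values are log2 levels per transcript cluster, which the authors made with Affymetrix Expression Console, per the submitters' processing notes; the summarization method, the version and the background step are not stated in the sources used here, so detection and depth cannot be set beside a value and 4 pools an arm limit the precision. Of 65956 clusters 1 was left out for a value over 100, 31265 named 1 gene, 1484 several and 33206 none, 1153 symbols were updated, and 441 genes had several clusters, of which the one with the highest mean stood for the gene. The 30709 genes were compared between the arms by limma 3.58.1 under R 4.3.3 (linear model, eBayes, Benjamini-Hochberg adjustment) with the 4 labelled groups as a random block (duplicateCorrelation, consensus correlation 0.258). In a fit of the 13629 genes with a level of at least 6 the correlation was 0.537. The errors given here use 0.258 and so treat the pools of a group as less alike. In that fit 102 of 109 named genes called as deposited were still called. The interaction was fitted on 4 group means. P-values measure the spread between these pools, which may be technical. Alternatives were 3 scalings, a level filter, other cluster choices, other blocks and each pool left out; list counts without 1 pool and the interaction under other scalings were chosen after seeing the data. The fit was tested on simulated data. Members, gene lists and tests were chosen with earlier results of these data known. Named genes were, per direction, the 12 with the largest gap that were called, were separated under all 4 scalings and had a level of at least 6, leaving out predicted genes, pseudogenes and small RNAs; up to 3 per list; all COP9 subunits and Trim21; the 3 largest interactions per direction; and the called genes at the edge of separation. Snord82 and the gene families were chosen after their values were seen.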

Additional observations from a re-analysis of the deposited data

Results flagged for a closer look

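In 22 of 352 checks of 1 arm and 1 item, a single pool lay far from the other 3 of its arm by Dixon's criterion (its gap to the nearest pool over the range of the 4), and chance gives about 1 in 20. All values here are log2 levels, the pool's own first and the range of the other 3 in parentheses. The pool Trim21 mRNA and anti-COPS3 replicate 2 had 7.0 for Ndufv1 (the others 6.81 to 6.83). The pool anti-COPS3 only replicate 1 had 18.37 for Tcl1b4 (the others 18.54 to 18.56), 6.28 for Pfkm (the others 5.74 to 5.82), 9.13 for Dhx8 (the others 10.6 to 10.67), 5.3 for Mavs (the others 6.2 to 6.31) and 11.47 for Cops2 (the others 9.57 to 9.74). The pool anti-COPS3 only replicate 2 had 8.055 for the list median of cholesterol synthesis (the others 6.84 to 7.025), 5.43 for the median of the cumulus and granulosa cell markers (the others 5.13 to 5.18), 9.84 for Eprs (the others 7.97 to 8.27), 8.11 for Cct4 (the others 6.5 to 6.75), 8.46 for Tomm40 (the others 7.74 to 7.79), 10.81 for Pgam1 (the others 8.81 to 9.11), 7.82 for Ipo4 (the others 6.96 to 7.0) and 6.5 for Xrcc1 (the others 7.18 to 7.29). The pool Trim21 mRNA replicate 1 had 5.28 for the list median of interferon and NF-kB response (the others 5.1 to 5.105) and 10.73 for Pmpca (the others 10.52 to 10.54). The pool Trim21 mRNA replicate 2 had 12.73 for Eif3a (the others 12.9 to 12.93), 6.41 for Ebp (the others 6.75 to 6.8) and 9.72 for Cops7b (the others 9.53 to 9.56). The pool non-manipulated replicate 1 had 4.81 for Ptgs2 (the others 4.99 to 5.02). The pool non-manipulated replicate 2 had 5.52 for the median of the cumulus and granulosa cell markers (the others 4.99 to 5.07) and 14.61 for Npl (the others 14.9 to 14.92).

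The antibody difference with Trim21 mRNA minus that without it passed an adjusted p under 0.05 over all genes in an interaction fit of limma for these named genes, all of them separated as deposited. It was positive, in log2, at 1.375 for Tgfb2, 2.08 for Tlr9, 2.185 for Lratd2 and 1.98 for Ctif. It was negative at −1.495 for Rflnb, −1.64 for Gldc, −1.92 for Cops6, −1.575 for Rnf7, −2.335 for Psmd7, −1.095 for Psmd11, −2.0 for Fau, −2.64 for Rpl27, −1.515 for Rps15, −2.01 for Eif3a, −1.26 for Cyc1, −3.405 for Ssr2. Further negative values were −2.795 for Ctsz, −2.1 for Ctsb, −2.325 for Nup133, −2.205 for Gins3, −1.895 for Cdc20, −1.845 for Pramel7, −2.015 for Obox6, −2.035 for Epcam, −4.255 for Calcoco2, −4.18 for Actr6 and −3.95 for Dppa5a. Adjusted p-values were 0.00227 to 0.0457. Lratd2, Ctif, Rnf7, Epcam and Dppa5a were not separated under all 4 scalings. Each group had a day of its own, so the day cannot be told apart from the interaction. Neither can injection, since non-manipulated embryos were left in the incubator.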

How the results depend on the processing

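All counts here are higher first and lower second in the antibody pools. As deposited, 723 and 2447 genes were called. Centring each array on its median gave 212 and 3425, quantile normalization 1133 and 1820, cyclic loess 1147 and 1992, and a filter to a mean level of at least 6 in one arm 248 and 1738. All transcript clusters in place of 1 per gene gave 1452 and 3488, and no random block 2161 and 3425. Fitting 4 group means gave 4976 and 5209, array weights 5874 and 5312, and adjusted p under 0.01 left 143 and 932. With the pools of a group averaged, limma called 0 and 0, with 6918 genes at an unadjusted p under 0.05, and only 2 values an arm remained. Leaving out each pool in turn gave 292 to 1689 and 1399 to 3074. The lowest counts came without Trim21 mRNA replicate 1 for higher and without anti-COPS3 only replicate 1 for lower genes, and both highest without anti-COPS3 only replicate 2. A replicate block gave 462 and 1968. Replicate numbers did not pair the samples: deviations from group means correlated at −0.191 to 0.143 over the 6 pairs of groups.

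Separated genes (5138 and 4236 as deposited) numbered 1019 higher with centring, 2921 with quantile normalization, 2998 with cyclic loess, 1306 with the level filter and 11085 over all clusters, and 5513 to 10751 with a pool left out. Higher genes with a gap of at least 1 (79) numbered 24 with centring, 211 with quantile normalization, 181 with cyclic loess, 123 over all clusters and 80 to 166 with a pool left out. Lower genes with that gap (790) numbered 413 with quantile normalization, 470 with cyclic loess and 808 to 1626 with a pool left out. The causes of these shifts were not tested, and a left-out pool by construction leaves fewer pools to separate.

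Of 109 named genes called as deposited, 107 were still called in the same direction with centring, 99 with quantile normalization, 102 with cyclic loess, 101 with the replicate block, 93 to 107 with a pool left out and 0 with averaged pools. The list median turned sign for interferon and NF-kB genes, to −0.101 with centring, −0.042 with quantile normalization, −0.047 with cyclic loess and −0.423 with the level filter. In the same order it became −0.0125, −0.0153, −0.0162 and −0.0563 for sperm markers and −0.055, −0.0275, −0.0163 and −0.5 for oviduct markers. For blood markers it became −0.00938 with quantile normalization and −0.0039 with cyclic loess. Medians also turned negative for cumulus and granulosa markers (0.173 as deposited), at −0.14 with centring, −0.117 with quantile normalization and −0.0705 with cyclic loess, and for p53 targets (0.0313), at −0.281, −0.0278 and −0.0683. Glycolysis (−0.128) had a median of 0.0046 without non-manipulated replicate 2. Below a level of 6, where most higher genes lie, array background limits what these differences show, and no detection calls were used here.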

Other observations

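Gene families were also read by the stem of their symbols, for stems with at least 8 genes at a level of at least 6, and those named here were chosen after their values were seen. Of all genes of that level 29.2% were lower and 9.58% higher. The families with the highest shares of genes lower in all 4 antibody pools were Rpl (22 of 24), Utp (9 of 10) and Rrp (7 of 8), which make or form the ribosome, Sf (8 of 10), mainly splicing factors, Rps (16 of 21) and Ubxn (6 of 8), adaptors of the segregase p97. The autophagy family Atg followed with 9 of 14 Atg genes, at a median difference of −1.51. In the WD-repeat family Wdr 24 of 40 were lower and 3 higher, and in the Integrator family Ints 9 of 15 were lower and 0 higher.

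The families with the highest shares of higher genes were Fbxw, with 15 of 22 higher and 2 lower, Nlrp, with 8 of 13 higher and 1 lower, and Il, with 9 of 20 higher and 2 lower. Fbxw genes encode F-box proteins with WD repeats and in the mouse include a cluster of near-identical oocyte genes. Probes shared between such copies were not tested for. Among Pramel genes 12 of 33 were higher and 7 lower. Family counts are descriptions without a test.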
